A study of Rattus norvegicus with 8 samples.

Results

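The endothelial and lymphatic vessel genes described here are 30 genes taken by name from a fixed list, read out of the table of raw counts for the 8 labelled cervical libraries of rat periodontal ligament. The count table holds 29 of the 30 (Mmrn2 was not analysed here) among 17337 genes, and 27 passed the filter on low counts among 10472 genes tested. The periodontal ligament (PDL), the connective tissue between tooth root and bone, was cut out by laser from the cervical region of rats at postnatal day 18 (P18, n = 4 animals) and day 28 (P28, n = 4 animals). Teeth come into contact between these ages, and the series compares the ligament before and after. All animals were untreated and grew normally; no strain, sex or allele is given in the labels, and each library was taken as 1 animal. The libraries were made with a low-input kit.

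Blood vessels are lined by endothelial cells, which are held together by VE-cadherin and claudin-5 and carry receptors for vascular endothelial growth factors (VEGF) and angiopoietins. VEGF-A acts through VEGFR2 (Kdr), with VEGFR1 (Flt1) as a receptor that also traps the ligand, and VEGF-C acts through VEGFR3 (Flt4) on lymphatic vessels, whose identity is set by the transcription factor Prox1. Angiopoietin-1 activates the receptor Tie2 (Tek) and stabilises vessels, while angiopoietin-2 can oppose it. The PDL is a well-vascularised ligament, and its vessels run near the bone side.

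Total counts per library ran from 5252693 to 26645656. Ligament fibroblast genes such as Col1a1 and Col3a1 summed to 96077 to 137379 CPM (counts scaled to library size by TMM, the unit of all levels below) at P18 and to 138017 to 196187 CPM at P28. P28 replicate 4 was the shallowest library and lay far from the others on the first principal component, at 163 against -40.9 to 3.60. Most of the listed genes were detected, with between 24 and 27 of the 29 at 10 counts or more in a library. Pecam1, Cdh5, Tie1, Emcn and Plvap had counts in all 8 libraries. Other endothelial genes had low counts or none: Robo4 had 0 counts in all libraries, Cd34 had 0 to 90 and Vwf had 2 in P28 replicate 4. Lymphatic markers were mixed. Prox1 had 1 count, in P28 replicate 3, among 123872086 counts in all 8 libraries, and Stab2 had 0. Aspn, of the ligament fibroblast list, stayed at or below 0.0904 CPM in every library. Itgam, of the macrophage list, stayed at or below 1.04 CPM, and Ltf, of the neutrophil list, had 0. Other genes of these lists were well detected. How fully reads of Prox1, Stab2, Cd34, Aspn, Itgam and Ltf were counted was not tested, so their low values do not show absent transcripts. Lyve1 reached 44.1 CPM, Flt4 25.5 CPM, Ccl21 19.8 CPM and Pdpn 164 CPM in their highest libraries; Lyve1 and Pdpn are also made outside lymphatic vessels. P-values below set the difference between the ages against the spread among libraries of an age, in these 8 libraries.

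Stretches of the genome before the start of 4 of these genes are shown: Egfl7, which was higher in every P28 library, Kdr and Flt1, receptors for the same ligand that are compared below, and Erg, which encodes an ETS-family factor of endothelial cells. RefSeq promoters (build GRCr8, not the build used for counting) were at hand for 16 of the 30 genes, as 17 windows, and the 250 bases before each start were read; Pecam1, Sox18 and Cdh5 were not among them. Capitals mark AGGAAG or its reverse complement CTTCCT, the core that ETS-family factors bind. The windows are chr3:29805381-29805630, plus strand and chr3:29808051-29808300, plus strand (Egfl7), chr12:12333180-12333429, plus strand (Flt1), chr14:32571813-32572062, plus strand (Kdr) and chr11:48251567-48251816, minus strand (Erg).

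Egfl7, upstream start: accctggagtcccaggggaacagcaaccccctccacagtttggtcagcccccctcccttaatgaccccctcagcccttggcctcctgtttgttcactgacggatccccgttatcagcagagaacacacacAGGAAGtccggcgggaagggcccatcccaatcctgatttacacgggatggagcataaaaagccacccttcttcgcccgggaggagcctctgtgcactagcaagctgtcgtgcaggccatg
Egfl7, downstream start: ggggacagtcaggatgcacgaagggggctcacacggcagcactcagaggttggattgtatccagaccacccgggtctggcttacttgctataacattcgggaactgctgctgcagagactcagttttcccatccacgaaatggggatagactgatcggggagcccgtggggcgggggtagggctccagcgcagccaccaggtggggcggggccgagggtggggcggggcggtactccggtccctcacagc
Flt1: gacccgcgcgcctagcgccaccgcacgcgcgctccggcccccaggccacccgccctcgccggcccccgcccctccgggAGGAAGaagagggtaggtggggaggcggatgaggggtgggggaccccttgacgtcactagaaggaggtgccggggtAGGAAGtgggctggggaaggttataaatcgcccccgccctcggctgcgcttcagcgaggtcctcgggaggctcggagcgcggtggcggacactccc
Kdr: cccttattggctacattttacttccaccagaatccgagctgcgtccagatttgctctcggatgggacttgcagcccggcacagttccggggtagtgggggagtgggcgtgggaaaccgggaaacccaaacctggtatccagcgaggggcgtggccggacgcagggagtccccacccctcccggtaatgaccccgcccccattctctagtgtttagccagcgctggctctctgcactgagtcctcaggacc
Erg: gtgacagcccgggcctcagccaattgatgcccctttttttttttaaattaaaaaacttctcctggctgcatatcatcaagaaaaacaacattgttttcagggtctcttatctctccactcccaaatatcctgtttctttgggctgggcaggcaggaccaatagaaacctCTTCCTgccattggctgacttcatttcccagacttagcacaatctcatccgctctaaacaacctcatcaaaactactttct

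On either strand, AGGAAG was found in 12 of the 17 windows of vessel genes and in 29.5% of 33469 windows of all genes. The SOX core ACAAAG was found in 3 of the 17 (Eng, Mmrn2 and Tie1) and 16.3% of all, and the GATA core AGATAA in 1 (Erg) and 10.3% of all. No match of 1 motif overlapped a match of another in these windows. The windows of Kdr and of the downstream Egfl7 start hold none of the 3 motifs. Such a match is a string of letters, not a shown binding site. Egfl7 also hosts the microRNA miR-126, with 2 mature forms on the plus strand inside the gene, 126a-5p and 126a-3p. The 3p form, at chr3:29813219-29813240 (GRCr8), is shown with its seed, bases 2 to 8, in capitals. MicroRNA levels were not analysed here.

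rno-miR-126a-3p: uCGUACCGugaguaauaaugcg

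None of the 27 tested genes passed the test between the ages, and their fold changes pointed both ways. By edgeR's quasi-likelihood test, 0 were called at an adjusted p under 0.05, where 0.936% of all genes tested were called. The DESeq2 Wald test called 3 (Pecam1, Egfl7 and Sox18, all higher at P28) against 5.30% of all genes, and voom called 1 (Pecam1) against 2.93%. At an unadjusted edgeR p under 0.05 there were 4 (14.8%, against 14.5% of all genes): Pecam1, Egfl7 and Sox18 higher and Aplnr lower. For 3 genes no P28 library overlapped a P18 library (11.1%, against 10.4% of all genes), and these were again Pecam1, Egfl7 and Sox18. Log2 fold changes, P28 over P18, ran from -1.24 to 0.95 with a median of 0.02, beside a median of 0.01 over all genes tested. They lay below 0 for 12 genes (44.4%, against 49.7% of all genes). In whole tissue, fewer cells of a type and less RNA per cell cannot be told apart.

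**Figure D1:**
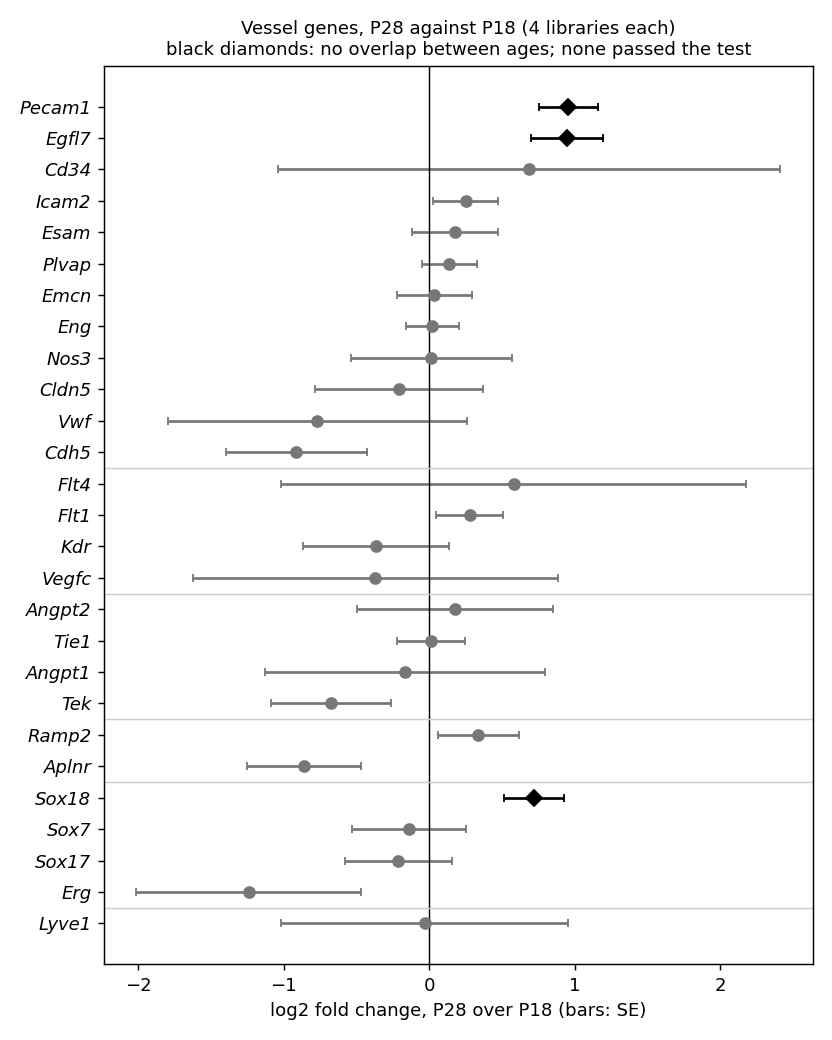
Log2 fold change (horizontal axis, P28 over P18, bars are the SE) of the 27 tested vessel genes, grouped by role with grey lines between groups. Pecam1, Egfl7 and Sox18 (black diamonds) stand at 0.95, 0.95 and 0.72, while Cdh5, Tek, Aplnr and Erg stand below 0 with wide bars.

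Of the adhesion and surface genes, Pecam1 had the lowest p. Pecam1 encodes CD31, an adhesion molecule of endothelial junctions that platelets and leukocytes also carry. It lay at 134, 117, 145 and 136 CPM in P18 libraries 1 to 4, and at 192, 310.4, 232 and 296 CPM in P28 libraries 1 to 4; replicates are given in this order throughout. Every P28 library was above every P18 library. The means were 133 ± 11.6 CPM at P18 against 258 ± 55.3 CPM at P28 (SD, n = 4 per age, here and below), which is 1.94-fold higher in the fit. The log2 fold change was 0.95 ± 0.20 (SE, here and below), and the edgeR adjusted p, 0.0518, just missed the threshold. It passed in the DESeq2 Wald test (adjusted p = 0.00182) and with voom (0.0357). Leaving out 1 library, the log2 fold change was 0.85 to 1.07 and the edgeR adjusted p 0.0557 to 0.204.

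Egfl7, a protein that endothelial cells secrete into their matrix, was also higher in every P28 library. Its levels were 291, 187, 237 and 279 CPM in the P18 libraries and 347, 484, 701 and 384 CPM in the P28 libraries, and P28 replicate 3 was the highest. The log2 fold change was 0.95 ± 0.25 (edgeR adjusted p = 0.0958; DESeq2 adjusted p = 0.00812), a 1.93-fold difference, and it ranged from 0.70 without P28 replicate 3 to 1.08 without P28 replicate 1 (edgeR adjusted p 0.0632 to 0.255 over all libraries left out in turn).

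Cdh5, which encodes VE-cadherin, the cadherin of endothelial adherens junctions, had a fold change below 0 that did not pass the test. P18 libraries held 74.9, 88.5, 144 and 162 CPM and P28 libraries 74.7, 119, 17.1 and 38.9 CPM. In 3 of the 4 P28 libraries Cdh5 was below every P18 library, P28 replicate 1 only barely so, while P28 replicate 2 was within their range. The log2 fold change was -0.91 ± 0.49 (edgeR adjusted p = 0.426), -1.42 without P28 replicate 2 and -0.60 without P28 replicate 3.

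The balance of these junction genes can be read within each library. The log2 ratio of Pecam1 to Cdh5 counts was 0.84, 0.41, 0.01 and -0.25 for the P18 libraries, but 1.36, 1.39, 3.76 and 2.92 for the P28 libraries. It does not depend on the scaling of libraries. This ratio was chosen after its values were seen, so it is a description with no test. Every P28 library lay above every P18 library.

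**Figure D2:**
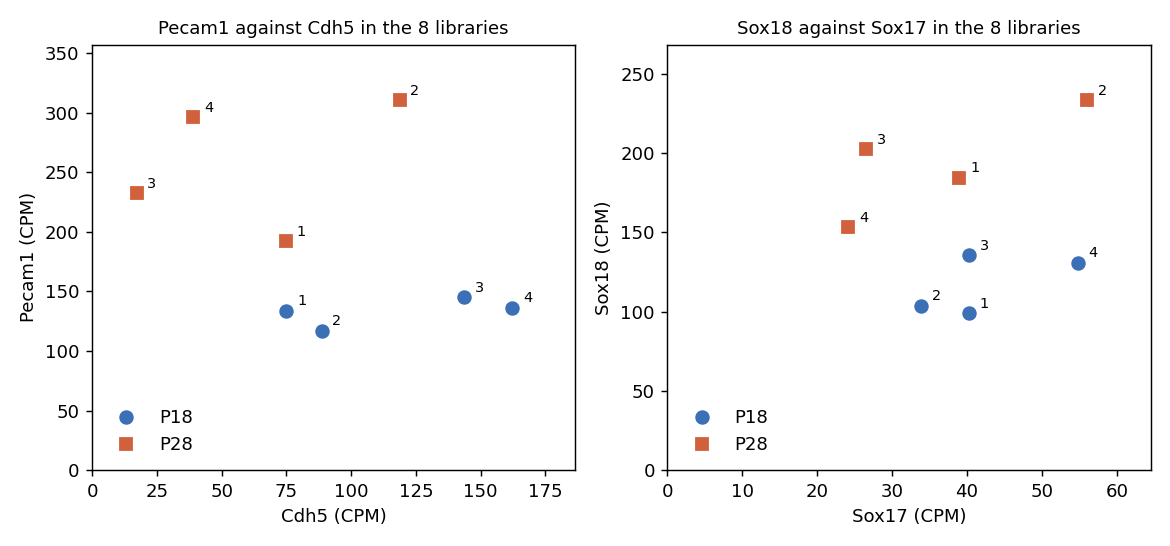
Pecam1 against Cdh5 (left) and Sox18 against Sox17 (right) in CPM, with 1 point per library labelled by its replicate number (circles P18, squares P28). On the left, the P28 libraries spread from 17.1 to 119 CPM of Cdh5 while all stay at or above 192 CPM of Pecam1. On the right, the ages overlap on the Sox17 axis and not on the Sox18 axis.

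Pecam1 is also carried by blood and immune cells, whose markers were summed in each library. Macrophage genes summed to 408 to 852 CPM at P18 and 471 to 1612 CPM at P28, and 5 of 10 tested had an unadjusted edgeR p under 0.05, all higher at P28. Of these, edgeR and voom called 0 and DESeq2 called 2 (C1qa and Folr2). P28 replicate 2, where Pecam1 was highest, had the lowest macrophage sum of that age (471 CPM), inside the P18 range. P28 replicate 4, where Pecam1 was next highest, had the highest macrophage sum of all 8 libraries (1612 CPM). Of the platelet genes only Pf4 passed the filter, with a log2 fold change of 0.01 ± 0.48, and Gp1bb had no count. Neutrophil genes summed to 36.5 to 941 CPM at P18 and 25.2 to 297 CPM at P28; of 7 tested, edgeR and voom called 0, DESeq2 called Ngp lower, and 2 were lower at an unadjusted edgeR p under 0.05. Osteoclast genes summed to 1451 to 1710 CPM at P18 and 1024 to 7814 CPM at P28. Of 4 tested, edgeR called Acp5 higher (log2 fold change 3.67 ± 0.77, adjusted p = 0.0494), DESeq2 called Acp5 and Mmp9 higher, voom called 0, and 3 were higher at an unadjusted edgeR p under 0.05. Their part in the Pecam1 difference was not tested.

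The remaining surface genes overlapped between the ages. Plvap, the diaphragm protein of fenestrated capillaries, was among the steadiest at P18: 682, 665, 770.5 and 743 CPM, against 685, 996, 859 and 610.0 CPM in the P28 libraries. Its log2 fold change was 0.14 ± 0.19 (edgeR adjusted p = 0.793). Eng (endoglin, a TGF-beta co-receptor) lay at 374 ± 26.8 CPM at P18 against 379.8 ± 64.1 CPM at P28. Emcn, the sialomucin endomucin of capillaries and veins, lay at 119.8 ± 18.4 CPM at P18 against 122 ± 37.2 CPM at P28. The libraries of both genes overlapped between the ages.

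Icam2, an adhesion molecule for leukocytes, had a log2 fold change of 0.25 ± 0.22 and Esam, a tight-junction adhesion molecule, one of 0.18 ± 0.29 (edgeR adjusted p = 0.663 and 0.835). The tight-junction gene Cldn5 went from 26.4 CPM in P28 replicate 4 to 153 CPM in P28 replicate 2, beside a range of 30.55 to 149.9 CPM at P18. Nos3, the endothelial nitric oxide synthase, was at 20.3, 50.0, 56.9 and 67.8 CPM in the P18 libraries and 18.9, 96.9, 63.4 and 17.9 CPM in the P28 libraries (log2 fold change 0.02 ± 0.55). Both genes were highest in P28 replicate 2 and lowest in P28 replicate 4.

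Vwf, the clotting factor of endothelial storage granules and platelets, was at 53.2 CPM in P18 replicate 1 and at 0.416 CPM in P28 replicate 4, with all other libraries in between. Its log2 fold change of -0.77 ± 1.03 turned to 0.33 without P18 replicate 1. Cd34, a sialomucin of capillary endothelium and of some fibroblasts, stayed at or below 9.30 CPM, with 0 to 90 counts per library. Robo4, an endothelial guidance receptor, is listed at 0 counts in all 8 libraries. The annotation used for counting is not known, so whether its reads could be counted is unknown too. If they could, a count of 0 allows a level of up to 0.108 CPM at the greatest depth and 0.624 CPM at the least (3 counts per library, counting error only).

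**Figure D3:**
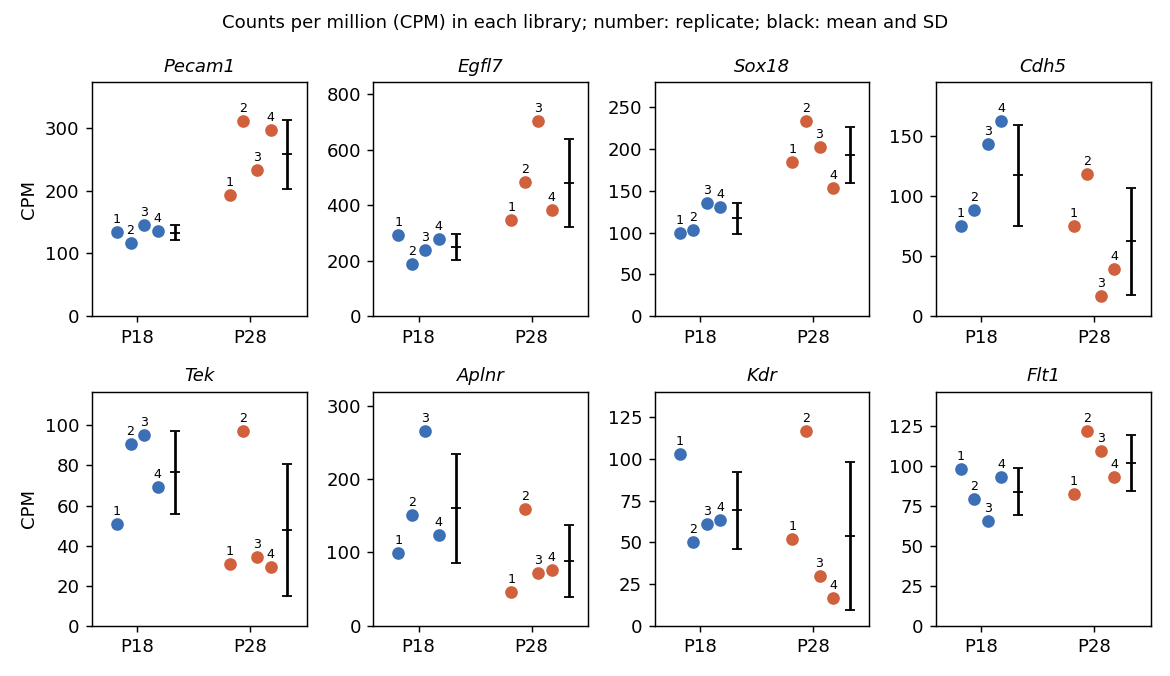
CPM of 8 vessel genes in each library at P18 (blue) and P28 (orange), numbered by replicate, with the mean and SD in black beside them; each axis starts at 0. Pecam1, Egfl7 and Sox18 show no overlap between the ages, and in the Cdh5, Tek, Aplnr and Kdr panels P28 replicate 2 stands above the other 3 P28 libraries.

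The VEGF receptors differed in how evenly the libraries held them. Kdr lay at 103, 50.1, 61.1 and 63.2 CPM in the P18 libraries and at 52.1, 117, 29.6 and 16.6 CPM in the P28 libraries. P28 replicate 2 was the highest of all 8 libraries and P28 replicates 3 and 4 were the lowest. The log2 fold change of -0.36 ± 0.50 (edgeR adjusted p = 0.796) was -1.07 without P28 replicate 2 and -0.07 without P28 replicate 4, so its size rested on single libraries.

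Flt1 was steadier, at 98, 79.6, 65.5 and 93 CPM in the P18 libraries and 82.5, 122, 109 and 93 CPM in the P28 libraries (log2 fold change 0.28 ± 0.23, edgeR adjusted p = 0.64). The log2 ratio of Kdr to Flt1 was -0.31 ± 0.36 at P18 and -1.27 ± 1.10 at P28, with -1.88 and -2.47 in P28 replicates 3 and 4. The difference of -0.96 did not pass (exact permutation p = 0.200, 2-sided; adjusted p = 0.300 over the 3 ratios tested). The smallest unadjusted p that 4 against 4 libraries allow is 0.0286. After adjustment over the 3 ratios, 1 ratio alone could therefore not pass, however far apart its libraries lay.

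Genes linked to lymphatic vessels varied widely between libraries. Flt4, which lymphatic endothelium uses to sense VEGF-C, was at 0.0904, 4.07, 7.64 and 9.52 CPM in the P18 libraries and 0, 25.5, 0.489 and 6.03 CPM in the P28 libraries, so at both ages single libraries had almost none. Lyve1, a hyaluronan receptor of lymphatic endothelium and of some macrophages, was at 1.54, 31.5, 37.5 and 30.04 CPM in the P18 libraries and 20.9, 44.1, 32.8 and 0.416 CPM in the P28 libraries. P18 replicate 1 and P28 replicate 4 stood far below the other 6 libraries, which lay between 20.9 and 44.1 CPM. Vegfc, the lymphatic growth factor, was at 0, 17.6, 12.1 and 21.8 CPM in the P18 libraries and 9.22, 26.1, 2.28 and 2.29 CPM in the P28 libraries. P18 replicate 1 was thus near 0 for all 3 of these genes, although Pecam1 and Kdr were at 134 and 103 CPM there.

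Their edgeR log2 fold changes were 0.58 ± 1.60 for Flt4, -0.03 ± 0.98 for Lyve1 and -0.37 ± 1.25 for Vegfc (adjusted p = 0.911, 0.994 and 0.932); that of Flt4 turned to -1.32 without P28 replicate 2. Of 8 further lymphatic genes in the table only 4 passed the filter, with a median log2 fold change of -0.25. Of the 4, edgeR, DESeq2 and voom called 0, and Pdpn alone had an unadjusted edgeR p under 0.05. Stab2 had 0 counts, and Reln was above 0 in 3 libraries. Pdpn (podoplanin), which bone and other stromal cells also make, was at 125, 50.9, 37.9 and 59.8 CPM in the P18 libraries and 80.4, 164, 135 and 158 CPM in the P28 libraries (log2 fold change 0.98 ± 0.37, edgeR adjusted p = 0.235). With Prox1 at 1 count, the cells behind the Lyve1, Flt4 and Vegfc counts were not identified. Of the macrophage genes, Folr2, which marks resident macrophages, lay at 12.8, 25, 47.2 and 8.04 CPM in the P18 libraries and 118, 16, 102 and 92.8 CPM in the P28 libraries. The part of macrophages in the Lyve1 level was not tested.

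In the angiopoietin axis, ligand levels varied widely within each age. Angpt1, made mainly by mural and other stromal cells, lay at 10.5, 2.16, 18.8 and 3.36 CPM in the P18 libraries and 4.41, 8.67, 2.45 and 15.6 CPM in the P28 libraries. Angpt2, released by endothelial cells, lay at 34.5, 5.15, 77.8 and 29.6 CPM in the P18 libraries and 41.1, 31.3, 15.1 and 79.1 CPM in the P28 libraries. Both were high in P18 replicate 3 and P28 replicate 4 and low in P18 replicate 2 and P28 replicate 3. The log2 ratio of Angpt2 to Angpt1 was 2.03 ± 0.80 at P18 and 2.5 ± 0.57 at P28 (exact permutation p = 0.371; adjusted p = 0.371).

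The receptor Tek was at 50.8, 90.9, 95.3 and 69.2 CPM in the P18 libraries and 30.8, 97.3, 34.3 and 29.1 CPM in the P28 libraries. P28 replicates 1, 3 and 4 were below every P18 library and P28 replicate 2 was above every one. Its log2 fold change was -0.68 ± 0.41 (edgeR adjusted p = 0.495), and -1.28 without P28 replicate 2 (adjusted p = 0.0849). Tie1, the partner receptor that modulates Tie2, lay at 231 ± 54.4 CPM at P18 against 234 ± 56.7 CPM at P28, with overlap. The log2 ratio of Tie1 to Tek was 1.61 ± 0.47 at P18 and 2.45 ± 0.64 at P28, a difference of 0.85 that did not pass (exact permutation p = 0.114; adjusted p = 0.300).

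Aplnr, the apelin receptor found on sprouting and venous endothelium, had the lowest p of the genes that lay lower at P28. It was at 99, 152, 266 and 124 CPM in the P18 libraries and 46.3, 159, 71.5 and 75.7 CPM in the P28 libraries. As with Tek, P28 replicates 1, 3 and 4 were below every P18 library and P28 replicate 2 was not. The log2 fold change was -0.86 ± 0.39 (edgeR adjusted p = 0.339). It was -1.31 without P28 replicate 2 (adjusted p = 0.0987) and -0.51 without P18 replicate 3, the highest. Ramp2, which pairs with the receptor for adrenomedullin, was at 235, 148, 217 and 175 CPM in the P18 libraries and 226, 217, 388 and 148 CPM in the P28 libraries. P28 replicate 3 was high and the rest overlapped (log2 fold change 0.34 ± 0.28, edgeR adjusted p = 0.639).

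Among transcription factors, Sox18, an SRY-box factor of endothelial and lymphatic development, was at 99.1, 104, 136 and 131 CPM in the P18 libraries and 184, 233, 202 and 153 CPM in the P28 libraries. No P28 library overlapped a P18 library. The log2 fold change was 0.72 ± 0.21, a 1.65-fold difference (edgeR adjusted p = 0.122; DESeq2 adjusted p = 0.0356). Leaving out 1 library gave 0.62 to 0.82 (edgeR adjusted p 0.0616 to 0.302). The related factors Sox17 and Sox7 overlapped between the ages: Sox17, which is strongest in arteries, lay at 40.2, 33.8, 40.2 and 54.8 CPM in the P18 libraries and 39, 56.1, 26.6 and 24.1 CPM in the P28 libraries (log2 fold change -0.21 ± 0.37), and Sox7 at 33.1 ± 6.48 CPM at P18 against 30.2 ± 11.3 CPM at P28 (-0.14 ± 0.39).

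The log2 ratio of Sox18 to Sox17 was 1.30, 1.61, 1.75 and 1.26 at P18 and 2.24, 2.06, 2.92 and 2.66 at P28, which do not overlap. Like the ratio of Pecam1 to Cdh5, it was chosen after its values were seen and has no test. Erg, the ETS factor, was at 13.9, 11.1, 46.6 and 21.4 CPM in the P18 libraries and 2.23, 21.8, 10.9 and 4.37 CPM in the P28 libraries. Its log2 fold change of -1.24 ± 0.77 (edgeR adjusted p = 0.506) was the furthest below 0 of the 27, -0.67 without P18 replicate 3, the highest, and -1.99 without P28 replicate 2.

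Much of the variation lay between libraries of the P28 group. With 1 library per animal, differences between animals, laser cuts and library quality cannot be told apart. P28 replicate 2 was the highest of the 8 libraries for 16 of the 27 tested genes (59.3%), where it was the highest for 10.6% of all genes tested. P28 replicate 4 was the lowest for 12 of the 27 (44.4%, against 22.0% of all genes). P28 replicate 2 also stood apart in Krt5, a basal epithelial keratin. Krt5 was at 122, 31.6, 48.2 and 7.13 CPM in the P18 libraries and 95.3, 1049, 219.9 and 15.8 CPM in the P28 libraries. The summed epithelial and enamel organ genes were at 5430 CPM in P28 replicate 2 and 47.9 to 1640 CPM in the other P28 libraries. P18 replicate 1 had almost the same sum (5412 CPM), but it was made up of other genes. Ambn and Odam were at 2329 and 1916 CPM there, and at 1.25 and 4.49 CPM in P28 replicate 2. Krt14 and Krt17 were at 2505 and 1805 CPM in P28 replicate 2, and at 391 and 44.1 CPM in P18 replicate 1. The 2 libraries are thus not alike in this content. P18 replicate 1 was the highest of the 8 for 1 of the 27 vessel genes, and for 11.9% of all genes. The part of epithelial and enamel organ content in the vessel levels was not tested. A core endothelial set of 12 genes had 10 that were tested (Pecam1, Cdh5, Kdr, Tek, Tie1, Esam, Egfl7, Erg, Sox18 and Cldn5), with Robo4 and Mmrn2 left over. Their mean log2 CPM was 6.44, 6.29, 7.05 and 6.91 at P18 and 6.33, 7.38, 6.25 and 6.05 at P28. On this scale P28 replicate 2 stood above all P18 libraries, and P28 replicates 3 and 4 stood below them. The summed CPM of the same genes, which the more abundant ones dominate, ordered the libraries differently, with 1003 to 1530 at P18 and 1383, 2176, 1577 and 1366 at P28. There P28 replicates 2 and 3 were above all P18 libraries, and P28 replicates 1 and 4 were within their range. Genes of 1 cell type share their source, so these counts do not add up as independent evidence.

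The coefficient of variation (CV, SD over mean) was larger at P28 for 23 of the 27 genes, against 64.0% of all genes tested. Its median was 28.7% at P18 and 55.8% at P28, beside 35.7% and 45.3% over all genes. Without P28 replicate 2 it was larger at P28 for 19 genes, and without P28 replicate 4 for 18 (51.6% of all genes), with medians at P28 of 42.0% and 45.1%.

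**Figure D4:**
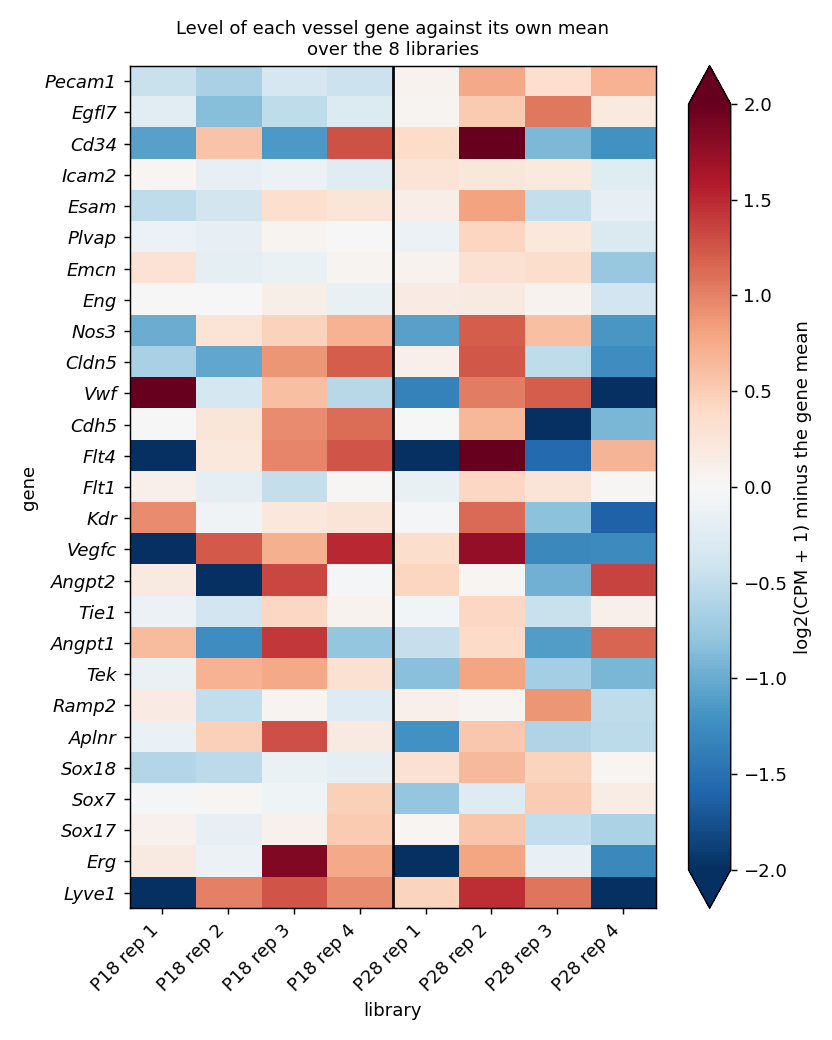
Each vessel gene (row) in each library (column) as log2(CPM + 1) minus the gene's own mean over the 8 libraries; red is above and blue below the mean, and the scale stops at 2 in each direction. P28 replicate 2 is red for most genes and P28 replicate 4 is blue for many. Pecam1, Egfl7 and Sox18 are above their means in the other P28 libraries as well, some only slightly and close to white.

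Set against the core set of the same library, without the gene itself, Pecam1 lay 0.43 ± 0.29 log2 units above the core at P18 and 1.65 ± 0.60 above it at P28. Sox18 lay 0.21 ± 0.18 and 1.19 ± 0.45 above it. For these 2 of the 27 (7.41%) the libraries did not overlap between the ages on this scale, against 4.50% of all genes tested. Egfl7 lay 1.41 ± 0.41 and 2.61 ± 0.78 above the core, with overlap, and Cdh5 went from 0.15 ± 0.30 above to 0.97 ± 0.99 below. These are descriptions with no test.

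Further genes of the pathways and of endothelium were read from lists. Of 16 tested genes of VEGF, angiopoietin, apelin and adrenomedullin signalling, 0 were called by edgeR, with 2 higher and 3 lower at an unadjusted p under 0.05 and a median log2 fold change of -0.10. DESeq2 called 1 (Adm, lower) and voom 0. Adm (adrenomedullin, a vessel-dilating peptide) was at 15.3, 19.2, 10.6 and 21.2 CPM in the P18 libraries and 0.587, 2.3, 3.34 and 0 CPM in the P28 libraries (log2 fold change -3.38 ± 1.09, edgeR adjusted p = 0.168). Hif1a, the oxygen-sensing factor upstream of VEGF, lay at 271 ± 30.4 CPM at P18 against 144 ± 59.7 CPM at P28, and Nrp2, a co-receptor of VEGF-C, at 42.4 ± 7.67 CPM at P18 against 19.6 ± 9.61 CPM at P28 (adjusted p = 0.174 and 0.303). For Adm, Hif1a and Nrp2 every P28 library was below every P18 library. Pdgfa, a growth factor for mesenchymal cells, was higher in every P28 library, with a log2 fold change of 0.68 ± 0.27 (adjusted p = 0.255). Vegfa, the ligand itself, was the other gene counted as higher, at 97.5, 79.9, 39.3 and 66.2 CPM in the P18 libraries and 148, 166, 100.3 and 68.9 CPM in the P28 libraries, with overlap (log2 fold change 0.77 ± 0.33, adjusted p = 0.31).

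Of 24 further pan-endothelial genes, 0 were called by edgeR, DESeq2 or voom, 2 were higher and 0 lower at an unadjusted edgeR p under 0.05, and the median log2 fold change was 0.09. Klf2, a factor that blood flow induces in endothelium, was at 91.4, 57.5, 58.4 and 67.9 CPM in the P18 libraries and 100.5, 141, 104 and 109 CPM in the P28 libraries, without overlap (log2 fold change 0.72 ± 0.24, adjusted p = 0.174). Tmem204 had a log2 fold change of 0.66 ± 0.25, Rasip1, which serves vessel lumen formation, one of 0.55 ± 0.28 and Ece1, which makes endothelin, one of -0.76 ± 0.43 (adjusted p = 0.242, 0.409 and 0.449). Of 16 tested genes of arterial, venous, capillary and inflamed endothelium, with a median log2 fold change of -0.09, edgeR and voom called 0, DESeq2 called 1 and 1 had an unadjusted edgeR p under 0.05. That gene was in both cases Bmx, a kinase of arterial endothelium, at 0, 13, 9.82 and 7.69 CPM in the P18 libraries and 0.0587, 0.836, 0.0815 and 0 CPM in the P28 libraries (adjusted p = 0.223). Its libraries overlapped because P18 replicate 1 had none. Red-cell genes, which can report blood held in a capture, summed to 2694 to 8891 CPM at P18 and 680.0 to 4544 CPM at P28; 0 of 9 were called by edgeR, 3 by DESeq2 and 1 by voom, all lower, and 5 were lower at an unadjusted edgeR p under 0.05. The part of blood in the levels of vessel genes was not tested.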

How the data were processed

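RNA from laser-cut cervical PDL of 8 rats was sequenced. The authors deposited raw counts per gene symbol; the submitters' processing notes name build rn6, edgeR 3.16.5, HTSeq 0.9.1 and STAR 2.5.3a. Which tool did what, the annotation and the strand setting were not given in the sources used here, so antisense overlaps could not be told apart, nor a gene at 0 from one that was not counted. A further 40 per-sample columns and a normalized copy were left unused. The deposited counts were tested in edgeR 4.0.16 (R 4.3.3; quasi-likelihood F-test, TMM scaling, age as the only term, filterByExpr by age with a minimum count of 10, 2-sided), with Benjamini-Hochberg adjustment over 10472 genes and a threshold of 0.05. The SE is the fold change over the root of F. CPM use TMM-scaled library sizes; log2 CPM used a prior count of 2, and ratios a prior of 0.5 counts. Ratios were compared with exact permutation tests (2-sided, 3 in the family). With no molecular identifiers named, limits cover counting error only.

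The members and lists were chosen with earlier results of these data known. All 30 members are accounted for. Values in each library are printed for members that are called, do not overlap between the ages or are among the 8 lowest p, and for a list of 14; up to 4 genes with the lowest p are named from other lists. Reln, Stab2, Gp1bb, Ccl21, Vegfa, Aspn, Itgam, Ltf, Odam, Krt14 and Krt17 were named after their values were seen. The fits were also run on simulated counts with known fold changes, and the outcome is not reported here. Alternatives were DESeq2 1.42.0 size factors, upper-quartile scaling, the DESeq2 Wald test, voom of limma 3.58.1 with quality weights, other filters, a replicate block and leaving out each library. RefSeq (GRCr8) was used for names, synonyms and sequences.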

Additional observations from a re-analysis of the deposited data

Results flagged for a closer look

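Of 60 groups of 4 libraries (the 27 tested genes and 3 ratios at each age, on the log2 scale), 5 held a library whose gap to its nearest neighbour took up a share of the group's range above the 95% critical value of Dixon's test for 4 libraries; chance gives about 1 in 20 groups. Lyve1 was far below the others in P18 replicate 1 (gap of 0.929 of the range, at 1.54 CPM) and in P28 replicate 4 (0.831, at 0.416 CPM). Vegfc stood apart in P18 replicate 1 (0.886), where it had 0 counts. Tek stood apart in P28 replicate 2, the highest of its age at 97.3 CPM (0.864). Icam2 stood apart in P28 replicate 4, the lowest of its age at 70.5 CPM (0.839).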

How the results depend on the processing

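The count of all genes called moved from 98 to 552 with the DESeq2 Wald test, 307 with voom, 26 with the replicate block and 9 (without P18 replicate 2) to 215 (without P28 replicate 4) leaving out 1 library; for the vessel genes it moved from 0 to 3 with DESeq2 and 1 with voom, and was 0 in every other fit. Same-numbered libraries did not stand out as alike. Their deviations from the age means correlated at -0.0196 to 0.00189, and 0 of 8 libraries correlated best with their own number. Whether they shared a batch was not tested. The replicate block changed no call of a vessel gene. Since it joins libraries of different animals, that is no check of the result. The cause of these shifts was not tested. Of 405 values for the 27 genes under the alternatives, 357 kept direction and side of the threshold, 4 passed only there and 44 reversed, in 14 genes. Reversals with upper-quartile scaling were Tie1 (-0.0126), Eng (-0.00155) and Nos3 (-0.00786); with voom Flt4 (-2.29), Nos3 (-0.422) and Angpt1 (0.0147); with the replicate block Emcn (-0.0121), Lyve1 (0.00671), Flt4 (-1.09), Nos3 (-0.193) and Angpt1 (0.0772). Leaving out 1 library, log2 fold changes ran over 0 for Tie1 (-0.136 to 0.159), Emcn (-0.0808 to 0.228), Vwf (-1.33 to 0.331), Cldn5 (-0.856 to 0.215), Esam (-0.124 to 0.341), Eng (-0.031 to 0.136), Lyve1 (-0.468 to 0.372), Flt4 (-1.32 to 1.01), Cd34 (-1.21 to 1.72), Nos3 (-0.541 to 0.29), Angpt1 (-0.752 to 0.535), Angpt2 (-0.333 to 0.846), Vegfc (-1.48 to 0.00667) and Sox7 (-0.376 to 0.0566). Pecam1, Egfl7, Sox18, Flt1, Icam2, Plvap and Ramp2 stayed above 0 and Cdh5, Kdr, Tek, Erg, Sox17 and Aplnr below 0 in all 15 alternatives. The 3 ratios kept their direction with a prior of 2 counts and with each library left out. Scaling cannot change a ratio within a library, so it is no check of them. The counts of a larger CV without single libraries, and the median of the 27 genes under each alternative (-0.224 to 0.159), were added after seeing the data. P28 replicate 4, at 5252693 counts, gives the least precise values for genes near 0.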

Other observations

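Mural cells, the pericytes and smooth muscle cells around vessels, had fold changes in both directions. Of 11 tested mural genes 0 were called by edgeR, and 2 were higher and 2 lower at P28 at an unadjusted p under 0.05, with a median log2 fold change of -0.30. DESeq2 called Cspg4 (higher) and Acta2 (lower), and voom called Cspg4. Cspg4, the NG2 proteoglycan of pericytes, lay at 47.5, 33.3, 33.3 and 25.1 CPM in the P18 libraries and 102, 143, 98.6 and 48.3 CPM in the P28 libraries (log2 fold change 1.49 ± 0.34, edgeR adjusted p = 0.0714), without overlap. Acta2, smooth muscle actin, lay at 58.8, 35.4, 112 and 112 CPM in the P18 libraries and 16.4, 37.6, 16.6 and 4.79 CPM in the P28 libraries (log2 fold change -2.07 ± 0.56, adjusted p = 0.105). Higd1b, a pericyte gene, had a log2 fold change of 1.48 ± 0.53 and the contractile gene Tagln one of -0.60 ± 0.20 (adjusted p = 0.217 and 0.175).

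Ccl21, the chemokine that lymphatic endothelium uses to draw in dendritic cells, did not pass the filter and was named after its values were seen. It was at 0, 0, 0.0427 and 0.0509 CPM in the P18 libraries and at 4.7, 7.73, 19.8 and 0.208 CPM in the P28 libraries. P28 replicates 1, 2 and 3 lay above all P18 libraries. The level in P28 replicate 4 was under its own limit of 0.624 CPM, so that library cannot be placed above the P18 libraries.

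Summed levels of other cell types are given as the lowest and highest library of an age. Epithelial and enamel organ genes lay at 37.5 to 5412 CPM at P18 and 47.9 to 5430 CPM at P28, with fold changes in both directions. Of 9 tested, edgeR called 2, both lower and without overlap: the enamel matrix gene Ambn (log2 fold change -8.51 ± 1.40, adjusted p = 0.0204) and Amtn (log2 fold change -10.01 ± 1.59, adjusted p = 0.0188). Krt5 had a log2 fold change of 2.73 ± 1.03 (adjusted p = 0.242). Schwann cell genes lay at 65.2 to 240.0 CPM and 91.1 to 247 CPM. Chondrocyte and osteoblast genes lay at 1819 to 3291 CPM and 3785 to 8086 CPM, without overlap. Most of this sum was Ibsp (means of 1785 CPM at P18 and 4516 CPM at P28) and Bglap (373 and 1722 CPM). Of 5 tested, 4 had a log2 fold change above 0 and 1 below, and Acan overlapped between the ages. EdgeR called Bglap higher (log2 fold change 2.21 ± 0.38, adjusted p = 0.0264), and DESeq2 and voom called Bglap and Ibsp higher.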
